A study of Homo sapiens with 6 samples.

Results

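The 10 genes described here encode the subunits of the transcription factor NF-kB (NFKB1, NFKB2, REL, RELA and RELB), the inhibitors that hold it in the cytoplasm (NFKBIA, NFKBIB and NFKBIE), and the feedback genes TNFAIP3 and BIRC3. They were chosen by gene symbol, and each symbol named exactly 1 of the 61806 genes in the deposited table. RNA-seq was performed on HCT116, a human colorectal cancer cell line kept in serum-containing medium. The labels describe 3 libraries of wildtype genotype that received a non-targeting siRNA (si-NC) and 3 of STRIP2 knockdown genotype that received an siRNA to STRIP2 (si-STRIP2). An siRNA is a short RNA duplex that directs the cutting of a matching transcript, and STRIP2 is a scaffold protein of the STRIPAK complex. No cytokine or other stimulus is named in the labels for either group. The number of siRNA sequences, the time after transfection and whether a group's libraries are separate cultures are not given in the sources used here, so p-values measure the spread between these libraries.

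NF-kB works as pairs of subunits. RELA, REL and RELB carry an activation domain, while NFKB1 and NFKB2 are made as long precursors that are trimmed to the DNA-binding partner. In resting cells the IkB proteins (NFKBIA, NFKBIB, NFKBIE and the untrimmed precursors) mask the pairs and keep them out of the nucleus. Signals from cytokine receptors activate the IKK kinases, which mark IkB for destruction, and the freed pairs bind kB sites in DNA. Several NF-kB genes, NFKBIA and TNFAIP3 among them, are themselves textbook targets of NF-kB, which closes a feedback loop. The data are transcript levels; protein levels, precursor trimming and nuclear entry were not measured.

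The bases near the start sites of the members are shown first, because the members are known both as makers and as targets of this pathway. RefSeq (GRCh38.p14) start-site windows, from 250 bases before to 50 after a start, were matched by symbol for 8 members, with 13 windows between them. RELB and NFKBIE were not matched. Each window was searched on both strands for the 10-base kB consensus, in which overlapping matches were counted as 1. A match was present in 8 of the 13 windows and in at least 1 window of 7 of the 8 members. Across all windows 11.3% of 35116 held a match, and across all genes 13.3% of 27305. Members with several windows had more chances of a match. The 2 windows of RELA held none. NFKB2 held 2 matches in each of 2 windows, and BIRC3 and NFKBIB held 2 in 1 window each. For these genes only 1 match is printed. Stretches of at most 30 bases around a match are printed 5′ to 3′ on the strand of the gene, with the matched bases in capitals.
REL: gtcagccgcGGGAAATTCCCctcccgcca
NFKB1: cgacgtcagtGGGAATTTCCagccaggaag
NFKB2: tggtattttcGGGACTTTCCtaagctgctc
NFKBIA: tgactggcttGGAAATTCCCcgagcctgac
NFKBIB: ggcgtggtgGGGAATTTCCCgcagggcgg
TNFAIP3: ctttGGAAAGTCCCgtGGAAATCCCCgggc
BIRC3: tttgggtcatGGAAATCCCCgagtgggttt

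The REL stretch lies at chr2:60881518-60881546 (plus strand), with its match from base -47 to base -37 relative to the RefSeq start, and reads as a match on both strands. The NFKB1 stretch is at chr4:102501300-102501329 (plus strand), the NFKB2 stretch at chr10:102395674-102395703 (plus strand) and the NFKBIB stretch at chr19:38899932-38899960 (plus strand). Each of these 4 stretches overlaps an exon outside the coding sequence in GENCODE 29, which places other transcript starts further upstream. The NFKBIA stretch, at chr14:35404811-35404840 (minus strand), and the BIRC3 stretch, at chr11:102317275-102317304 (plus strand), lie before the gene in that annotation. TNFAIP3 has 2 matches within 30 bases at chr6:137867188-137867217 (plus strand), which also overlaps an exon outside the coding sequence. Overlap with an exon was scored for the whole stretch, not for the matched bases alone. By the gene coordinates given below, NFKB1 starts at 102501330, just past its stretch. TNFAIP3 starts at 137867214, near the end of its stretch. The matches are a description of the letters; binding was not measured.

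Libraries held 17184963 to 21721218 counts, and all 10 members passed the filter on low counts. The chi-square per degree of freedom between libraries ran from 2.05 to 15.1 inside a group and from 32.5 to 37.8 across groups, so no pair of libraries agreed within counting noise. STRIP2 transcript in the knockdown libraries was 72.6% of the control level (log2 fold change -0.46, edgeR adjusted p = 1.62e-05). Levels are given as FPKM, fragments scaled by the exonic length of the gene and by the library total. The epithelial markers EPCAM, CDH1, KRT8, KRT18, CLDN7, CDX2 and VIL1 summed to 621 to 644 FPKM in si-NC and 557 to 572 FPKM in si-STRIP2, and VIL1 was near 0 (mean 0.023 and 0.0067 FPKM). The 9 immune markers summed to 0.46 to 0.67 FPKM in si-NC and 0.36 to 0.64 FPKM in si-STRIP2, with TYROBP at 0 and PTPRC at a mean of 0.010 and 0.0033 FPKM. The 6 fibroblast markers summed to 2.22 to 2.68 and 1.94 to 2.2 FPKM, of which COL1A1 made up 2.28 and 2.04 on average, and COL1A2 and DCN were at 0. The 4 endothelial markers summed to 0.37 to 0.46 and 0.16 to 0.23 FPKM, mostly KDR. The part of the epithelial and endothelial shifts in the members' values was not tested.

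Among the 10 members, 6 were lower in si-STRIP2 cells, 0 were higher and 4 did not pass the test (edgeR quasi-likelihood test, adjusted p under 0.05 over all genes). The background is high in this comparison: of 15687 genes tested, 54.8% were called, 27.0% as lower and 27.8% as higher. The count of 6 called members is therefore close to the rate for any gene, while all 6 were lower. No member was higher at an unadjusted p under 0.05 by edgeR either, and 0 were called higher by DESeq2 or limma. The count of lower members was 3 under DESeq2, 3 without si-NC replicate 1, 3 without si-STRIP2 replicate 1, 4 without si-STRIP2 replicate 2 and 4 with no filter on low counts. Over all genes, calls in either direction were 7238 of 15687 under DESeq2 and 8365 of 32799 with no filter. They were 7690 of 16043, 7780 of 15948 and 7960 of 16055 without those 3 libraries in turn. The median log2 fold change of the members was -0.17, beside 0.014 for all genes tested. The median absolute log2 fold change was 0.17 for the members and 0.26 for all genes tested. The si-NC and si-STRIP2 ranges of FPKM were apart for 6 of the 10 members, beside 58.6% of all genes tested. Against a 1.2-fold change as the null, 1 member was called (REL, by edgeR's glmTreat), beside 23.7% of all genes tested. In bulk RNA, fewer cells with a transcript and less of it per cell cannot be told apart.

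**Figure D1:**
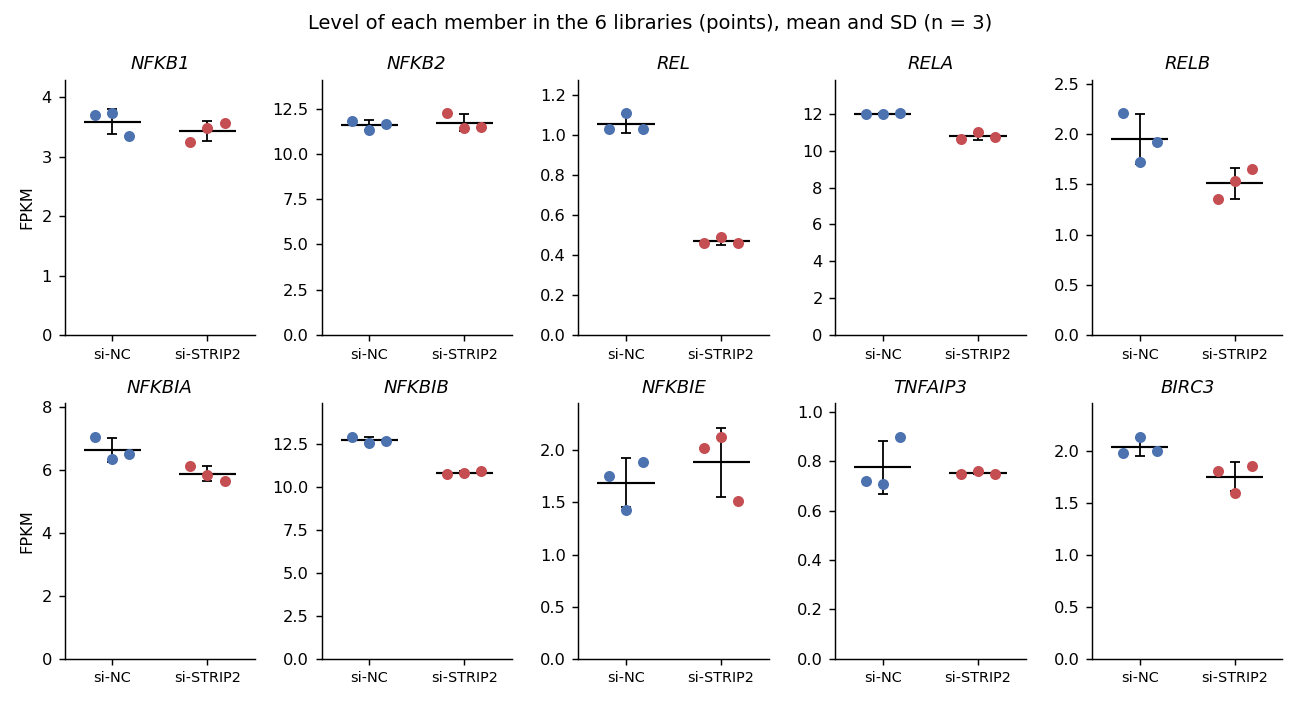
Each panel plots the FPKM of 1 member (y axis from 0) in the 3 si-NC and 3 si-STRIP2 libraries as points, with the mean as a line and the SD as a bar. REL sits near 1.06 FPKM in si-NC and 0.470 FPKM in si-STRIP2, and the groups are also apart for RELA, RELB, NFKBIA, NFKBIB and BIRC3.

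REL (ENSG00000162924, chromosome 2, 60881491 to 60931612, plus strand) encodes c-Rel, the subunit best known from lymphocytes, and it had the largest change of the 10. Its FPKM values were 1.03, 1.11 and 1.03 in si-NC and 0.46, 0.49 and 0.46 in si-STRIP2. Every si-STRIP2 library was below every si-NC library by a wide margin, and the libraries within a group nearly coincided. The counts behind these values were 385, 328 and 302 in si-NC and 149, 147 and 135 in si-STRIP2. The mean fell from 1.06 ± 0.0462 to 0.470 ± 0.0173 FPKM (SD, n = 3), which left 44.5% of the control level. On the log2 scale REL changed by -1.17 (standard error, SE, of 0.0920, 95% interval -1.35 to -0.98, edgeR adjusted p = 7.61e-13). A steeper fall than that of REL was seen for 298 genes among the 4240 called lower. The 2 genes that overlap REL in the table had 0 counts. REL was called under each of its 16 alternatives. On log2(FPKM + 1) its change was -0.48, since that pseudocount is near or above its level.

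RELA (ENSG00000173039, chromosome 11, 65653599 to 65663090, minus strand), the main activating subunit of the canonical arm, was lower by a small and even step. It stood at 12.01, 11.97 and 12.04 FPKM in si-NC and at 10.62, 11.00 and 10.73 FPKM in si-STRIP2. The si-NC libraries were almost equal, and the si-STRIP2 libraries were all lower. In si-STRIP2 89.8% of the control level remained (log2 fold change -0.16 with an SE of 0.0464, edgeR adjusted p = 0.00413). The call held under 15 of 16 alternatives and ended against a 1.2-fold null.

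RELB (ENSG00000104856, chromosome 19, 45001461 to 45038192, plus strand) pairs with the trimmed NFKB2 product in the non-canonical arm. Its FPKM values were 2.21, 1.72 and 1.92 in si-NC and 1.35, 1.53 and 1.65 in si-STRIP2. The groups did not overlap, but the lowest si-NC library and the highest si-STRIP2 library were close. The control mean of 1.95 ± 0.246 compares with 1.51 ± 0.151 after knockdown (SD, n = 3; log2 fold change -0.39 with an SE of 0.144, edgeR adjusted p = 0.0226). The call ended when replicate 1 of si-NC (-0.27, edgeR adjusted p = 0.179) or of si-STRIP2 (-0.30, edgeR adjusted p = 0.115) was left out, and under DESeq2 (adjusted p = 0.0755). Across its 16 alternatives RELB had adjusted p-values between 0.00963 and 0.216.

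NFKB1 and NFKB2, the precursor subunits, did not pass the test. NFKB1 (ENSG00000109320, chromosome 4, 102501330 to 102617302, plus strand) had 3.69, 3.73 and 3.34 FPKM in si-NC and 3.25, 3.48 and 3.57 FPKM in si-STRIP2, and the groups overlapped. Its log2 fold change was -0.068 with a 95% interval of -0.18 to 0.039 (edgeR adjusted p = 0.281). NFKB2 (ENSG00000077150, chromosome 10, 102394110 to 102402524, plus strand) had 11.82, 11.29 and 11.67 FPKM in si-NC and 12.25, 11.45 and 11.47 FPKM in si-STRIP2. Its log2 fold change was 0.012 with a 95% interval of -0.084 to 0.11 (edgeR adjusted p = 0.850), that is from 0.943 to 1.08 times the control level.

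**Figure D2:**
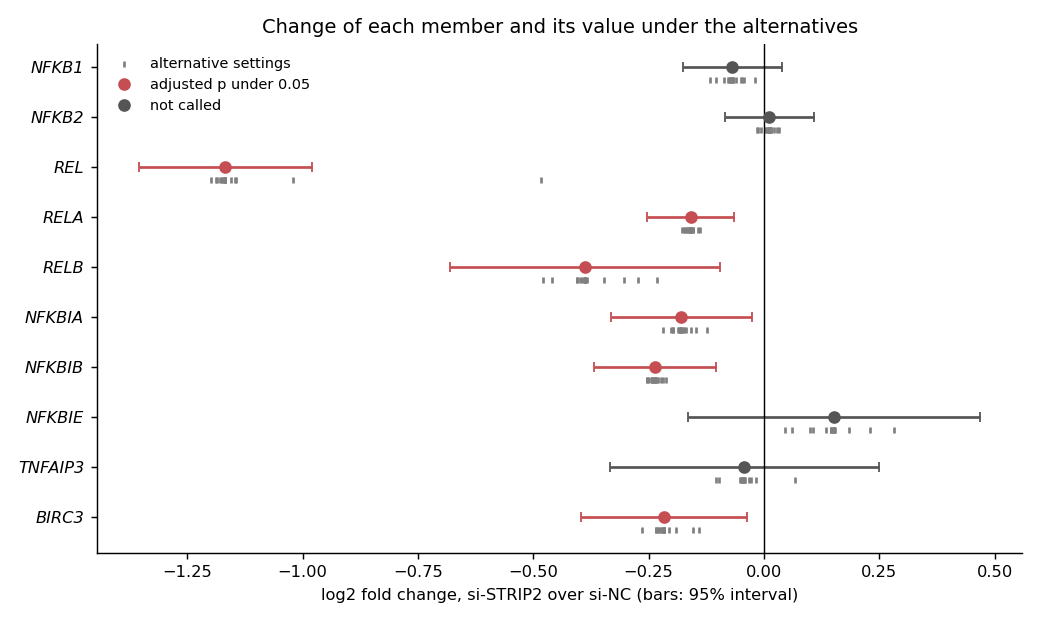
The x axis gives the log2 fold change of each member, si-STRIP2 over si-NC, with its 95% interval, and the small grey marks give the values under the alternative settings. REL lies apart at -1.17, the other 5 called members lie between -0.39 and -0.16, and the intervals of NFKB1, NFKB2, NFKBIE and TNFAIP3 include 0.

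The subunits were also set against one another within each library. Summed over the 5 subunits, the level lay between 29.82 and 30.76 FPKM in si-NC, above the 27.88 to 27.95 FPKM of the si-STRIP2 libraries. Shares of that sum, unlike the sum itself, do not depend on how libraries are scaled. The REL part was 3.50% ± 0.196 in control libraries and 1.68% ± 0.0605 in knockdown libraries (SD, n = 3). NFKB2 made up 38.4% ± 0.520 and 42.0% ± 1.62, and RELA 39.8% ± 0.631 and 38.6% ± 0.676. RELB made up 6.45% ± 0.710 and 5.41% ± 0.545. The share of the non-canonical subunits NFKB2 and RELB together came to 45.6%, 43.6% and 45.3% for si-NC and to 48.7%, 46.4% and 47.1% for si-STRIP2. All si-STRIP2 libraries were above all si-NC libraries, with a mean difference of 2.55 percentage points. Of the pair, NFKB2 alone rose in mean share, while that of RELB was lower in si-STRIP2. The exact 2-sided permutation test gave p = 0.1 for this share, for REL and for NFKB2, the lowest value possible with 3 libraries a group. The same exact test gave p = 0.2 for RELA and for RELB and p = 0.6 for NFKB1. With the ratios of inhibitors described below these are 8 tests of one family, none of which could reach 0.05, and the Benjamini-Hochberg adjusted values are 0.2 where p = 0.1, 0.267 where p = 0.2 and 0.6 where p = 0.6 (exact permutation tests).

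**Figure D3:**
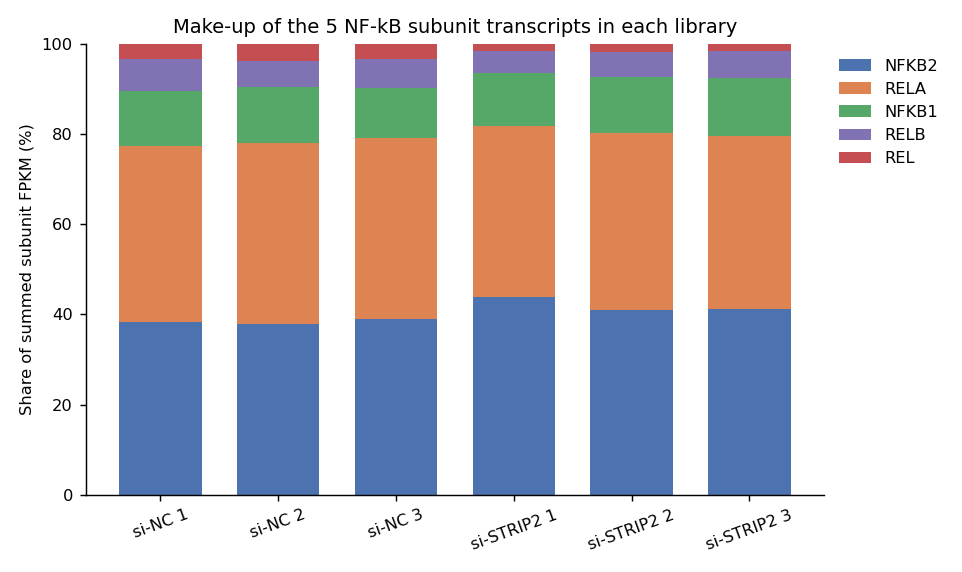
Each bar is 1 library, split into the share (in percent, y axis) of the summed FPKM of the 5 subunits that each subunit holds. NFKB2 and RELA hold the largest segments in every library, and the REL segment shrinks from 3.50% to 1.68% on average between si-NC and si-STRIP2.

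Of the IkB genes, NFKBIB and NFKBIA were lower and NFKBIE was not called. NFKBIB (ENSG00000104825, chromosome 19, 38899700 to 38908893, plus strand), the gene of IkB beta, had 12.94, 12.60 and 12.69 FPKM in si-NC and 10.79, 10.80 and 10.97 FPKM in si-STRIP2. The groups were well apart, and 85.2% of the control level remained (log2 fold change -0.24 with an SE of 0.0649, edgeR adjusted p = 0.00249). This call also held under 15 of 16 alternatives, the exception being the 1.2-fold null. SIRT2 overlaps NFKBIB on the opposite strand, from base 38899700 to base 38899862. Over its whole length SIRT2 held 41.6% as many counts as NFKBIB. Counts inside the shared stretch were not separated. Whether counting used the strand is not given in the sources used here. SIRT2 itself had a log2 fold change of 0.065 (edgeR adjusted p = 0.578). For the other 9 members, overlapping genes held at most 4.10% as many counts over their whole length.

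NFKBIA (ENSG00000100906, chromosome 14, 35401079 to 35404749, minus strand) encodes IkB alpha, the inhibitor that NF-kB resynthesises after activation. Its FPKM values were 7.05, 6.33 and 6.50 in si-NC and 6.13, 5.85 and 5.66 in si-STRIP2, so the groups were apart by a narrow gap (log2 fold change -0.18 with an SE of 0.0750, edgeR adjusted p = 0.0424). The call ended under 8 of 16 alternatives, among them leaving out si-NC replicate 1 (-0.12, edgeR adjusted p = 0.238) or any one si-STRIP2 library (edgeR adjusted p = 0.0515, 0.0891 and 0.120 for replicates 1, 2 and 3). NFKBIA had adjusted p-values between 0.0237 and 0.992 across the alternatives.

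NFKBIE (ENSG00000146232, chromosome 6, 44258166 to 44265788, minus strand), the gene of IkB epsilon, had 1.75, 1.43 and 1.89 FPKM in si-NC and 2.02, 2.13 and 1.51 FPKM in si-STRIP2. The groups overlapped, and the log2 fold change was 0.15 with a 95% interval of -0.16 to 0.47 (edgeR adjusted p = 0.421). With 64 to 98 counts per library, a change of up to 1.38-fold upward is within that interval. Per library, dividing the summed FPKM of the 3 IkB genes by that of the 5 subunits gave 0.707, 0.683 and 0.703 for si-NC, against 0.678, 0.672 and 0.651 for si-STRIP2. The si-STRIP2 ratios were all lower, though the nearest pair differed little (exact 2-sided permutation p = 0.1, the smallest possible). The mean difference was -0.031. With counts in place of FPKM it was -0.0059. Count ratios are not scaled by gene length, so the sizes of these differences cannot be compared. The NFKBIA to RELA ratio averaged 0.552 ± 0.0309 in control and 0.546 ± 0.0275 in knockdown libraries (SD, n = 3, exact 2-sided permutation p = 0.6).

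TNFAIP3 (ENSG00000118503, chromosome 6, 137867214 to 137883314, plus strand) encodes A20, a ubiquitin-editing enzyme that damps signalling to IKK. Its FPKM values were 0.72, 0.71 and 0.90 in si-NC and 0.75, 0.76 and 0.75 in si-STRIP2. The 3 si-STRIP2 libraries lay within the range of si-NC. The log2 fold change was -0.042 with a 95% interval of -0.33 to 0.25 (edgeR adjusted p = 0.823), on 79 to 100 counts per library.

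BIRC3 (ENSG00000023445, chromosome 11, 102317450 to 102339403, plus strand) encodes cIAP2, a ubiquitin ligase of TNF receptor complexes. It had 1.98, 2.14 and 2.00 FPKM in si-NC and 1.81, 1.60 and 1.86 FPKM in si-STRIP2, with no overlap between the groups (log2 fold change -0.22 with an SE of 0.0883, edgeR adjusted p = 0.0377). The call ended under 10 of 16 alternatives, which include leaving out si-NC replicate 1 (edgeR adjusted p = 0.0567) or 2 (0.106) and si-STRIP2 replicate 1 (0.0608) or 2 (0.186). For BIRC3 the adjusted p-values lay between 0.0225 and 0.778 across the alternatives.

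The order of the 10 levels, on the FPKM scale, differed between the groups at the top, at the bottom and among BIRC3, RELB and NFKBIE. In si-NC the order from the highest was NFKBIB (12.7 FPKM), RELA (12.01), NFKB2 (11.6), NFKBIA (6.63), NFKB1 (3.59), BIRC3 (2.04), RELB (1.95), NFKBIE (1.69), REL (1.06) and TNFAIP3 (0.777). Neighbours overlapped between libraries for BIRC3 with RELB and for RELB with NFKBIE, and for no other pair. In si-STRIP2 NFKB2 (11.7 FPKM) stood first, above NFKBIB (10.9) and RELA (10.8), which overlapped. NFKBIA, NFKB1, NFKBIE, BIRC3 and RELB came next, and the last 3 of these overlapped in turn. TNFAIP3 (0.753) and REL (0.470) came last, in the reverse of their order in si-NC. Levels per length rest on the exonic size in the table, which counts exons of all transcripts of a gene.

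The genes nearest to a member in pattern were sought among genes with a mean of at least 5 FPKM, by the root mean square difference of log2 CPM over the 6 libraries, each gene centred on its si-NC mean. For NFKBIA these were RNF187 (0.031) and PPP1R11 (0.032), for NFKB2 PBX2 (0.010) and VDAC2P5 (0.023), and for TNFAIP3 METTL25B (0.050) and STAT6 (0.054). With 6655 or 6656 genes compared, close matches of this kind describe the libraries only.

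The rest of the pathway was described with lists of ligands, receptors, IKK components, further inhibitors and target genes. Of the 123 genes on these lists, 95 passed the filter on low counts, of which 48 were lower (50.5%, beside 27.0% of all genes tested) and 20 higher (21.1%, beside 27.8%). IL1A, EDAR, LCN2 and IL32 reached the filter's cutoff in all libraries of si-NC but not of si-STRIP2. For such genes the filter favours a difference, though EDAR was not called. All of these lists were also written with earlier results of these data known. The counts and shares of every list, and of the lists together, are therefore descriptions only.

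Among 15 ligand genes, 4 passed the filter. TNF had 1 count in all 6 libraries together and IL1B had 0 (both named after their values were seen). IL1A, the gene of the alarmin interleukin 1 alpha, had 18, 21 and 19 counts in si-NC and 13, 6 and 1 counts in si-STRIP2, and passed the filter through si-NC alone. The si-STRIP2 libraries were lower but far from alike. IL18, an interleukin made by epithelium, rose from 36.8 ± 1.98 to 42.5 ± 1.51 FPKM (log2 fold change 0.20, edgeR adjusted p = 0.000218). TNFSF13B, which encodes the B cell factor BAFF, rose by 0.84 on the log2 scale from 0.28 to 0.493 FPKM (edgeR adjusted p = 0.0131). This rested on 13, 15 and 19 counts in si-NC and 29, 28 and 24 in si-STRIP2. Against a 1.2-fold null TNFSF13B was not called (glmTreat adjusted p = 0.0508).

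Of 21 receptor genes, 18 were tested, 9 being lower (50%, beside 27.0% of all genes tested) and 4 higher (22.2%, beside 27.8%), and the median change was -0.31 on the log2 scale. TNFRSF12A, the gene of the TWEAK receptor Fn14, stood at 28.48, 28.10 and 28.27 FPKM in si-NC and at 14.90, 14.29 and 13.19 FPKM in si-STRIP2. This was 49.9% of the control level, with no overlap (log2 fold change -1.004, edgeR adjusted p = 3.53e-16). TNFRSF10B, the TRAIL receptor DR5, fell from 72.04 ± 2.2 to 45.4 ± 1.35 FPKM (log2 fold change -0.67, edgeR adjusted p = 7.88e-16). NOD1, a cytosolic sensor of bacterial peptidoglycan, rose by 0.67 on the log2 scale (edgeR adjusted p = 1.23e-05).

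The IKK list held 34 genes, all tested, of which 14 were lower (41.2%, beside 27.0% of all genes tested) and 9 higher (26.5%, beside 27.8%), and their median change was 0.00061 on the log2 scale. MALT1, a protease and adapter of the CARD, BCL10 and MALT1 complex, fell from 10.3 ± 0.481 to 6.09 ± 0.133 FPKM (log2 fold change -0.75, edgeR adjusted p = 1.33e-16). TAB2, which links ubiquitin chains to the kinase TAK1, had a log2 fold change of -0.64 (edgeR adjusted p = 5.32e-15). RBCK1, a subunit of the linear ubiquitin ligase, had -0.58 (edgeR adjusted p = 1.54e-13). TBC1D20 overlaps RBCK1 on the opposite strand and held 64.5% as many counts over its whole length.

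The kinase genes of this list, IKBKG and BIRC2 were picked out after their values were seen. Besides the kinase genes described next, RIPK1 and IRAK1 were called lower. IKBKE, TBK1, MAP3K7 and IRAK4 were not called (edgeR adjusted p = 0.269, 0.652, 0.253 and 0.314). Nor was the IKK subunit gene IKBKG (edgeR adjusted p = 0.167). CHUK, the gene of IKK alpha, had 20.61, 21.99 and 20.59 FPKM in si-NC and 15.91, 16.63 and 15.93 FPKM in si-STRIP2 (log2 fold change -0.39, edgeR adjusted p = 1.23e-09). IKBKB, the gene of IKK beta, had 1.93, 1.98 and 2.05 FPKM in si-NC and 2.98, 2.95 and 2.95 FPKM in si-STRIP2 (log2 fold change 0.58, edgeR adjusted p = 3.52e-09). The catalytic partners thus moved in opposite directions, and neither pair of groups overlapped. MAP3K14, the gene of the kinase NIK of the non-canonical arm, had a log2 fold change of 0.50 (edgeR adjusted p = 0.000485). However, its overlapping antisense neighbour MAP3K14-AS1 held 105% as many counts over its whole length. BIRC2, the paralog of BIRC3, fell from 32.03 ± 1.39 to 23.2 ± 0.722 FPKM (SD, n = 3; log2 fold change -0.47, edgeR adjusted p = 3.61e-11).

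Of the further inhibitors, 15 of 16 genes were tested, with 7 lower and 2 higher and a median change of -0.13 on the log2 scale. The 60.0% called in either direction is near the 54.8% of all genes tested, with 46.7% lower beside 27.0% and 13.3% higher beside 27.8%. CYLD, the deubiquitinase mutated in cylindromatosis, fell from 3.00 ± 0.218 to 2.00 ± 0.173 FPKM (log2 fold change -0.58, edgeR adjusted p = 5.00e-09). TAX1BP1, a ubiquitin-binding partner of A20, fell from 24.4 ± 1.30 to 17.6 ± 0.631 FPKM (log2 fold change -0.47, edgeR adjusted p = 2.42e-11). N4BP1, an RNase-like suppressor of NF-kB signalling, had a log2 fold change of -0.41 (edgeR adjusted p = 2.67e-08). CYLD, TAX1BP1 and N4BP1 had the smallest adjusted p of the list. OTULIN, picked out after its values were seen, went the other way, by 0.41 (edgeR adjusted p = 3.53e-06). It was also called against the 1.2-fold null (glmTreat adjusted p = 0.0239). Among the nuclear IkB genes, also picked out afterwards, BCL3 had 0.27 and NFKBIZ -0.11, neither called (edgeR adjusted p = 0.133 and 0.380). NFKBID had 0.56 on 23 to 40 counts per library (edgeR adjusted p = 0.0424). NXPE3 overlaps NFKBIZ on the same strand and held 165% as many counts over its whole length. The gene that overlaps NFKBID, also on the same strand, held 17.0% as many over its whole length.

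The target list held 37 genes, 24 of them tested, with 17 lower (70.8%, beside 27.0% of all genes tested) and 3 higher (12.5%, beside 27.8%) and a median change of -0.39 on the log2 scale. The falls of LCN2 (log2 fold change -3.87, edgeR adjusted p = 2.70e-18), CXCL8 (-2.78, edgeR adjusted p = 1.28e-15) and IER3 (-0.67, edgeR adjusted p = 4.18e-16) had the smallest adjusted p of the list. LCN2 had 218, 178 and 174 counts in si-NC and 17, 9 and 11 in si-STRIP2. LCN2 and IL32, both among the lower genes, reached the filter's cutoff in all si-NC libraries but in only 2 si-STRIP2 libraries each. The list was also written with earlier results of these data known. Its shares and the p-value of LCN2 are therefore descriptions only. LCN2 encodes lipocalin 2, CXCL8 the neutrophil attractant interleukin 8, and IER3 a survival factor of the immediate early response. CD83, with a log2 fold change of 0.53 (edgeR adjusted p = 5.97e-05), was chosen after its values were seen as an example of the 3 that rose. Several of the members are commonly counted as NF-kB targets too, and the 10 members lay between -1.17 for REL and 0.15 for NFKBIE.

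**Figure D4:**
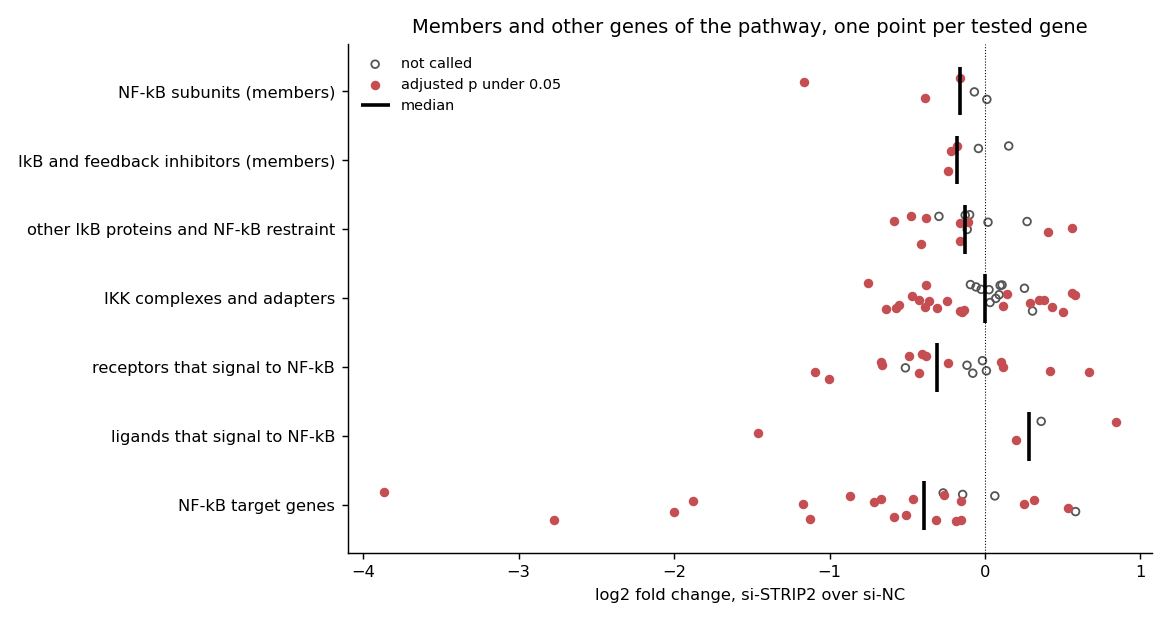
Each point is the log2 fold change (x axis, si-STRIP2 over si-NC) of 1 tested gene, in rows by list, with the list's median as a black line and called genes filled. Target genes reach -3.87, the IKK list is spread on both sides of 0, and the members other than REL lie within 0.39 of 0.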

How the data were processed

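Poly(A) RNA of 6 HCT116 libraries was sequenced from directional libraries, per the labels' protocols. Cutadapt 1.9.1, HISAT2 2.2.1, HTSeq 0.6.1 and the build GRCh38.p13 are named in the submitters' processing notes; settings and the use of strand are not given in the sources used here. The authors deposited raw counts and FPKM values per gene, per the file headers; FPKM was recomputed from the counts to within 0.005, its rounding.

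Counts were tested in R 4.3.3 with edgeR 4.0.16: filterByExpr (minimum count 10, 15687 genes, 99.8% of counts), TMM scaling, quasi-likelihood fit on group, Benjamini-Hochberg adjustment over all genes tested, calls at 0.05. Standard errors are the absolute log2 fold change over the square root of F. The script was tested on simulated data. DESeq2 1.42.0, limma 3.58.1 on log2(FPKM + 1) and log2(FPKM + 0.1), other scalings and filters, a replicate block and leaving out each library were alternatives. Promoter sequences are RefSeq's, GRCh38.p14; of the 13 windows, 10 matched the sense strand of a GENCODE 29 transcript of the gene.

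The members and gene lists were chosen with earlier results of these data known. Named were the members, STRIP2, LCN2, the 3 genes with the smallest adjusted p of each other list, and the 2 nearest genes in pattern to NFKBIA, NFKB2 and TNFAIP3; others are marked as chosen after their values were seen.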

Additional observations from a re-analysis of the deposited data

How the results depend on the processing

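TNFAIP3 rested on 79 to 100 counts per library and NFKBIE on 64 to 98, and changes inside their 95% intervals remain compatible with these data. REL was called under all 16 alternatives and RELA and NFKBIB under 15; NFKB1, NFKB2, NFKBIE and TNFAIP3 were called under none of theirs (TNFAIP3 was not tested with at least 1 FPKM in 3 libraries). The cause of the moves below was not tested beyond what each setting changes by construction.

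In place of 6 members called, all lower, there were 4 with no filter on low counts, 3 under DESeq2, 1 against a 1.2-fold null, 4 with the replicate block, and 3 to 6 when 1 library was left out. Over all genes, 8365 of 32799 were called with no filter, 7238 of 15687 under DESeq2 and 3723 of 15687 against the 1.2-fold null. With the replicate block 8293 of 15687 were called, and without 1 library 7690 to 8494. Under DESeq2 the calls of RELB (-0.39), NFKBIA (-0.19) and BIRC3 (-0.22) ended, and with no filter those of NFKBIA (-0.18) and BIRC3 (-0.22). Limma ended that of BIRC3 at both pseudocounts (-0.14 and -0.21). The 1.2-fold null leaves values as they were and ended the calls of RELA (-0.16), RELB (-0.39), NFKBIA (-0.18), NFKBIB (-0.24) and BIRC3 (-0.22).

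Same-numbered libraries do not pair: the correlations of their deviations were -0.086, -0.013 and -0.072, and 0 of 6 libraries were closest to their own number. With the replicate block NFKBIA (-0.18) and BIRC3 (-0.22) were not called, and the further inhibitors had 6 calls in place of 9.

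Leaving out 1 library gave -0.016 to 0.031 for NFKB2, -0.10 to 0.066 for TNFAIP3, -0.48 to -0.27 for RELB, -0.22 to -0.12 for NFKBIA and -0.26 to -0.15 for BIRC3, and 6 to 10 calls among the further inhibitors. NFKB2 was also negative with the filter of 1 FPKM (-0.0065). Against a 1.2-fold null, 3723 of all 15687 genes were called (23.7%). On the lists, 4 of 15 further inhibitors, 11 of 34 IKK genes, 6 of 18 receptors, 1 of 4 ligands and 12 of 24 targets were called. The further inhibitors had 6 calls with no filter and 5 of 15 under DESeq2, where ligands had 2 of 4. Receptors had 5 calls and ligands 1 with the filter of 1 FPKM, where 7488 of 12329 genes were called.

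With counts in place of FPKM, the IkB to subunit ratio differed by -0.0059, on a scale not corrected for gene length. The difference in the NFKBIA to RELA ratio, -0.0064, ranged from -0.022 to 0.011 without 1 library.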
